A study of Mus musculus with 3 samples.

Results

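The cytosolic ribosomal protein genes of mouse colonic macrophages are described here, small subunit against large subunit. The members were the rows whose symbol has the form of a ribosomal protein name (Rps, Rpl, Rpsa or Rplp with its number), without the S6 kinases, without rows that join several symbols, and averaging 1 FPKM or more across the 3 libraries. FPKM counts fragments relative to transcript length and to the mapped fragments of the library, so levels can be compared between genes per length. Of 83 rows that matched by name, 80 passed the minimum, 32 of the small and 48 of the large subunit, out of 11114 genes that passed it and 23997 rows in all. They hold 75 of the 80 canonical subunit proteins, 30 of 33 in the small and 45 of 47 in the large subunit, and 5 paralogs or retrogenes (Rps4l, Rps27l, Rpl7l1, Rpl22l1 and Rpl36al). The member nearest the minimum, though well above it, was Rps4l, at 13.6 FPKM in WT and 11.4 in both others. The nearest row below the minimum was Rpl39l, at 0.129, 0.134 and 0.318 FPKM. Wherever 3 values stand together, they are those of WT, of the library labelled Tle3cKO and of Tle4cKO, in that order. Rpl3l was at 0.0752 FPKM in WT and listed at 0 in the others, and Rpl10l was listed at 0 in all 3.

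RNA-seq was done on colonic macrophages of untreated C57BL/6 males about 9 weeks old, sorted as Ly6C-low CD64-positive cells that lacked Siglec-F. The WT group carried Lyz2-Cre alone, the Tle3cKO group Tle3f/f with Lyz2-Cre and the Tle4cKO group Tle4f/f with Lyz2-Cre, so all 3 groups carried the Cre, which the myeloid Lyz2 promoter drives. Cells of 4, 3 and 4 mice were pooled into 1 library per genotype. There was therefore no replicate error and no test, and every ratio below compares 1 pool with another. Tle3 and Tle4 encode co-repressors that are recruited to DNA by transcription factors.

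The targeted genes were read first. Tle3 was at 38.6, 70.7 and 46.9 FPKM, so it was higher in the library labelled Tle3cKO than in WT, which goes against that label. Tle4 was at 8.50, 11.01 and 5.80 FPKM and was lowest in the library of its own knockout. Whether the Tle3 reads lie in the deleted part cannot be read from a value per gene. Lyz2 itself was at 10.4, 11.7 and 11.3 FPKM. The macrophage markers C1qa (1243, 1093 and 1150 FPKM), Csf1r (459, 406 and 387) and Cd68 (495, 501 and 483) were high in each library. Others of the 11 macrophage markers, Lyz2 among them, were far lower. The 11 summed to 4815, 4254 and 4473 FPKM, and in each library labelled cKO 5 were above WT and 6 below it.

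Each cytosolic ribosome carries 1 copy of nearly every ribosomal protein on its ribosomal RNAs, the small subunit reading the mRNA and the large subunit making the peptide bond. The genes are scattered over the genome, and their mRNAs begin with a cytosine followed by a run of pyrimidines, the 5′ terminal oligopyrimidine (TOP) motif, through which mTORC1 and the binding protein Larp1 set how strongly they are translated. In macrophages, as in other cells, ribosomal protein mRNAs are among the most abundant, and some of the proteins have further roles, in p53 control and in inflammatory translation among others.

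The members lay on 19 chromosomes, with 14 on chromosome 7 and 4 on the X. Their coding sequences were short, with a median of 459 nt against 1338 nt for the other tested genes, and ran from 78 nt (Rpl41) to 1260 nt. GENCODE places snoRNA genes inside 30 members on the same strand, 58 in all, and the 31 snoRNA rows that the files hold at these loci were listed at 0 in every library. For 75 members the annotation held at least 1 other gene of at least 95% identity over at least 80% of the coding sequence, 565 such genes in all, most of them processed copies.

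Sequences around the transcription start are shown for 14 members, since the TOP run is the feature that these genes are known to share. RefSeq start windows (GRCm38.p6) were matched by symbol for 59 of the 80 members. Each line gives 15 bases before and 15 from the annotated start on, 5′ to 3′ on the gene's strand, so that the first transcribed base is the 16th. Capitals mark the part inside the window of the longest run of C or T that touches the 10 bases on either side of the start. The first 8 carry a long run and the last 6 a short one.

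Rpl7a (chr2:26910792-26910821, + strand): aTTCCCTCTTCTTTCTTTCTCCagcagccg
Rpl27a (chr7:109519180-109519209, + strand): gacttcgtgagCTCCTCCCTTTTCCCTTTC
Rpl35 (chr2:39005117-39005146, - strand): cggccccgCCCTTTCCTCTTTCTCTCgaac
Rpl28 (chr7:4792950-4792979, + strand): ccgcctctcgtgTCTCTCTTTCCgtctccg
Rpl13a (chr7:45128731-45128760, - strand): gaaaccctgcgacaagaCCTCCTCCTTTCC
Rps6 (chr4:86857353-86857382, - strand): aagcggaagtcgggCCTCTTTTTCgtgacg
Rps18 (chr17:33955651-33955680, - strand): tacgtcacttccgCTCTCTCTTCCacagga
Rpl22l1 (chr3:28805493-28805522, + strand): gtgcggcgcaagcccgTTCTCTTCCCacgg
Rps21 (chr2:180257364-180257393, + strand): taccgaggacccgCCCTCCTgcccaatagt
Rps28 (chr17:33824548-33824577, - strand): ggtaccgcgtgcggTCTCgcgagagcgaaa
Rplp0 (chr5:115559452-115559481, + strand): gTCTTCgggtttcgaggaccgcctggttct
Rpl5 (chr5:107900513-107900542, + strand): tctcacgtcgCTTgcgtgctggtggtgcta
Rpl10 (chrX:74270801-74270830, + strand): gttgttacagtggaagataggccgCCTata
Rpl26 (chr11:68901551-68901580, + strand): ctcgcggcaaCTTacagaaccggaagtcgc

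Runs were counted where they touched the 10 bases on either side of the start, and need not cover the first transcribed base. For genes with several windows, the one with the longest run was taken. A run of at least 8 pyrimidines near the start was found in 27 of the 59 members (45.8%) and in 17.0% of 8370 other tested genes with a window. It was in 10 of 23 small-subunit members (43.5%) and 17 of 36 large-subunit members (47.2%). The run was longest in Rpl7a, at 21 bases. The stricter form, a C as first base and 4 further pyrimidines, was at the annotated start of 20.3% of the members and 2.76% of the other genes. In the 300 bases from 250 before to 50 after the start, CTCTTTCC on the sense strand was found in 8 members (13.6%), all of the large subunit (22.2% of those with a window and none of 23 in the small subunit), against 1.67% of the other genes. These letters can overlap the run itself, as in Rpl28. CCGGAAG on either strand, the core that ETS-family factors bind, was in 39.0% of the members and 19.2% of the other genes. AAGATGGC on either strand was in 8.47% against 5.10%, and TATAAA on the sense strand in 10.2% against 4.38%.

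The members were among the most abundant rows of every library. Their summed level was 13.5%, 13.7% and 14.8% of all FPKM, and 45, 45 and 47 of them were among the 100 highest rows. The median level was 1007, 998 and 1099 FPKM. The small subunit stood above the large in each library, with medians of 1176 against 824 FPKM, 1140 against 795 and 1229 against 876. Among canonical subunits alone the order was the same, at 1218 against 902, 1154 against 869 and 1260 against 920 FPKM. The ranking of the members hardly moved, with Spearman's rho of 0.995 to 0.998 between libraries over the 80 genes, which are not replicates and share the libraries.

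The highest members of the large subunit were Rplp1, Rpl41, Rpl10 and Rplp2. Rplp1 and Rplp2 are the acidic proteins of the stalk, which recruits the translation factors, and are bound as dimers to its base, Rplp0. Rplp1 was at 2907, 2767 and 3043 FPKM, Rplp2 at 2169, 1997 and 2311, and Rplp0 at 1320, 1266 and 1398. All 3 stalk genes were lowest in the library labelled Tle3cKO and highest in Tle4cKO, but with each library brought to the same total FPKM (equal totals) WT was lowest for Rplp0 and Rplp1. The level of Rplp1 per Rplp0 stayed at 2.203, 2.185 and 2.177, and that of Rplp2 per Rplp0 at 1.64, 1.58 and 1.65. Rpl41, the shortest protein of the ribosome, was at 2606, 2324 and 2731 FPKM. Rpl10, which joins the large subunit late in its maturation, was at 2349, 2251 and 2555 FPKM.

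The highest members of the small subunit were Rps29, Rps26, Rps28 and Rps9. Rps29, a short zinc-binding protein of the small-subunit head, was at 2200, 1829 and 2360 FPKM. Rps28, another short protein, was at 2052, 1704 and 2116 FPKM. Both were lowest in the library labelled Tle3cKO, with WT close to Tle4cKO. Rps26, which lies at the mRNA exit, was at 1972, 1886 and 2103 FPKM, and Rps9 at 1810, 1843 and 1948. Rps9 had the library labelled Tle3cKO just above WT.

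**Figure D1:**
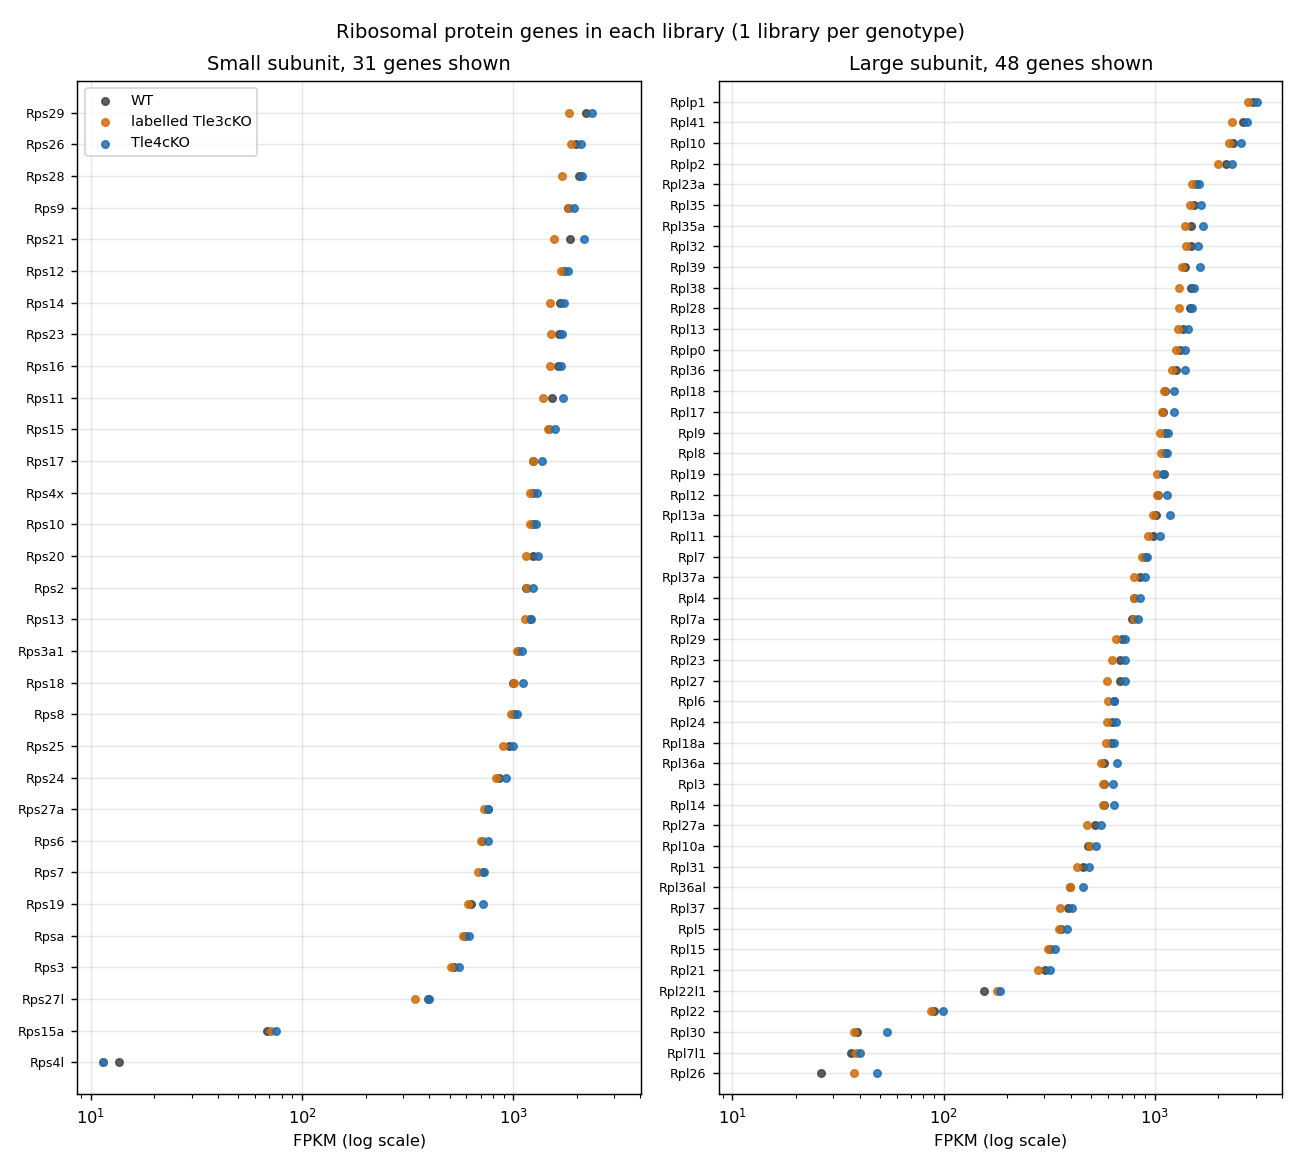
FPKM of 79 of the 80 ribosomal protein genes on a log axis, small subunit left and large subunit right, ordered by mean level. Each point is 1 library, coloured by genotype label. Over all 80, Tle4cKO was highest for 78, and Rps4l, Rps15a, Rpl26, Rpl7l1, Rpl30 and Rpl22 lay under 100 FPKM.

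At the low end, 6 members were under 100 FPKM. Rps4l (12.2 FPKM on average), which GENCODE types as a transcribed processed pseudogene, and Rpl7l1 (38.4), a distant Rpl7 paralog, are not canonical subunits. Rps15a, Rpl22, Rpl30 and Rpl26 are, and the ribosome holds each once beside proteins whose mRNAs were above 1000 FPKM. Rps15a was at 68.4, 71.1 and 75.7 FPKM and Rpl22 at 90.2, 87.6 and 99.8. Rps15a has 6 near-identical genes in the annotation, and those with a row here were each under 1 FPKM. Rps27l (394, 342 and 397 FPKM) and Rps3 (527, 509 and 554) were the next lowest of the small subunit.

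For Rpl26 and Rpl30, a second row stood at the same locus in the files. Rpl26, which binds the p53 mRNA among its further roles, was at 26.4, 37.5 and 48.6 FPKM. The files give the row named Gm15772 the same position, chr11:68901566-68904534 (mm10), and it was at 1412, 1231 and 1440 FPKM. GENCODE places Gm15772 elsewhere, as a processed pseudogene on chromosome 5 that matches the Rpl26 coding sequence at 436 of 438 bases. The Rpl26 row held 1.83%, 2.95% and 3.27% of the sum of both rows. By its own row, Rpl26 had the highest ratio of all members against WT, with log2 ratios of 0.49 (library labelled Tle3cKO) and 0.86 (Tle4cKO). By the sum of both rows the log2 ratios were -0.18 and 0.05, so the first changed sign.

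Rpl30, which binds its own transcript, was at 39.0, 37.8 and 53.8 FPKM, beside 1300, 1263 and 1539 FPKM for the row Gm12191 at chr15:34440506-34443276. GENCODE has Gm12191 as a processed pseudogene on chromosome 11, with 347 of 348 coding bases alike. The log2 ratio of Tle4cKO to WT was 0.45 by the Rpl30 row and 0.25 by the sum. How reads were divided between such rows was not tested.

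The same was seen for both canonical subunits that appear only in joined rows. At the Rps27 locus the rows summed to 4005, 3836 and 4488 FPKM, above every member, with all but 0.278%, 0.244% and 0.192% of it under the name Rps27rt. At the Rpl34 locus they summed to 1701, 1616 and 1794 FPKM, divided almost evenly with the row Rpl34-ps1 (49.8%, 46.1% and 54.3% in the joined row). Both sums were highest in Tle4cKO and lowest in the library labelled Tle3cKO, or in WT with equal totals. Fau and Rack1, canonical subunits outside the name pattern, had the same orders on both scales. Fau, a ubiquitin-like protein fused to a small-subunit protein, was at 1981, 1923 and 2132 FPKM. Rack1, the scaffold protein of the small-subunit head that the files call Gnb2l1, was at 763, 726 and 780 FPKM.

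**Figure D2:**
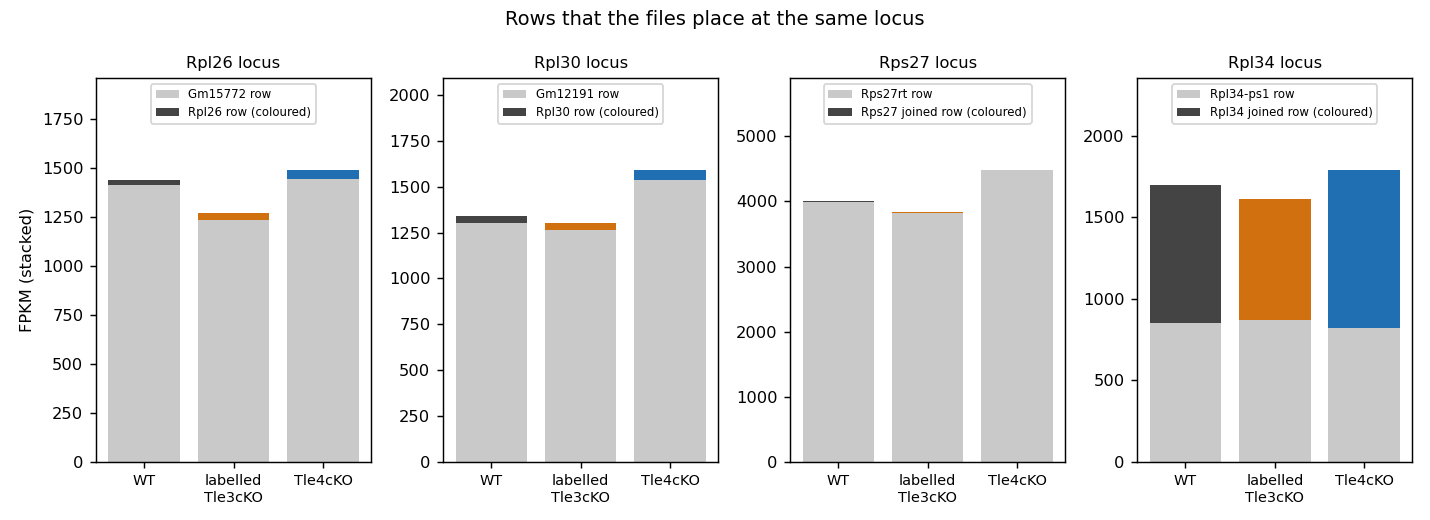
FPKM of the rows that the files place at 1 locus, stacked from 0, for Rpl26, Rpl30, Rps27 and Rpl34 in each library (1 library per bar). Grey is the row under the copy's name. Colour is the gene's own row for Rpl26 and Rpl30, and the row that joins both names for Rps27 and Rpl34. The own row held 1.83% to 3.27% of the Rpl26 sum and about as much of the Rpl30 sum.

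Between libraries, the members moved little, and in each comparison most moved one way. No member reached a 2-fold difference in any comparison. Among all tested genes 0.423% did so between the library labelled Tle3cKO and WT, 0.648% between Tle4cKO and WT, and 0.729% between Tle4cKO and the library labelled Tle3cKO. Shares this low leave few or no genes in a group of the members' size, so having none does not set the members apart. Ratios are given as log2 of FPKM plus 1. The comparisons share libraries, so their values stand side by side and do not support each other.

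In the library labelled Tle3cKO, 70 of 80 members were lower than in WT and 10 higher, against 52.4% lower and 47.6% higher among all genes tested. The median log2 ratio was -0.06, beside -0.01 over all genes. Other abundant genes were lower to a like extent: of 214 other genes averaging 300 FPKM or more, 160 were lower, with a median of -0.07. The direction depended on the scaling of the libraries for both. With equal totals, 59 members were higher than WT, beside 68.4% of all genes. The members' median was then 0.04, that of the 214 abundant genes 0.02 and that of all genes 0.08. On both scales the members' median lay below that of all genes.

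In Tle4cKO, 78 of 80 members were higher than in WT, against 49.4% of all genes. The median log2 ratio was 0.09, beside -0.003 over all genes. The quartiles ran from 0.06 to 0.14 in the members and from -0.11 to 0.11 over all genes. Of the other abundant genes 92 of 214 were higher, with a median of -0.02. Rpl19 (1107, 1029 and 1100 FPKM) and Rps4l were the 2 members below WT. With equal totals 79 members were above WT with a median of 0.12, beside 112 of the 214 abundant genes (median 0.00572) and 56.3% of all genes (0.02).

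In Tle4cKO 79 of 80 members were higher than in the library labelled Tle3cKO, against 52.4% of all genes, with a median log2 ratio of 0.16 beside 0.01 over all genes and 0.07 over the 214 other abundant genes. The quartiles ran from 0.10 to 0.20 in the members and from -0.11 to 0.11 over all genes. With equal totals 75 members were higher (median 0.09), beside 36.4% of all genes (median -0.05) and 104 of the 214 abundant genes (median -0.00395). As deposited this comparison had the widest median of the 3, and with equal totals Tle4cKO against WT did. Less the median of all genes, this comparison was the widest on both scales, at 0.147 as deposited and 0.140 with equal totals. Tle4cKO against WT was then at 0.092 and 0.095.

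Read as an order of the 3 libraries, 68 of 80 members (85.0%) were lowest in the library labelled Tle3cKO and highest in Tle4cKO. Of the other tested genes 16.8% had that order. Another 10 members (12.5%) had WT lowest and Tle4cKO highest, beside 15.8% of the other tested genes. Rps9, Rps15a, Rps18, Rpl7a, Rpl26, Rpl7l1 and Rpl22l1 were among these 10. Tle4cKO was thus highest for 78 members, and it was highest for 75 with equal totals. The lower part of the order was less firm: with equal totals 19 of the 68 members kept the library labelled Tle3cKO lowest and Tle4cKO highest, and Rpl19 gained that order. Equal totals raise the values of the library labelled Tle3cKO for every gene, member or not. The shares of other genes given here are as deposited, so these equal-totals counts have no share beside them. In pooled bulk RNA, more cells of a type and more RNA per cell cannot be told apart.

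Markers of other cells also differed between the libraries. Of 15 epithelial markers 6 passed the minimum, and all 6 were higher in Tle4cKO than in both others. Some of the 6 were under 1 FPKM in both others and passed only through Tle4cKO. For those the filter set the direction. The 15 summed to 4.31, 9.93 and 49.2 FPKM. The 14 B and plasma cell markers were all above WT in both libraries labelled cKO and summed to 292, 365 and 516 FPKM, the joining chain gene Igj accounting for 46.9, 57.9 and 192. The 7 glial markers, of which 5 passed the minimum, summed to 40.05, 40.5 and 13.6 FPKM, and all 5 were lower in Tle4cKO than in WT. The 14 stromal markers summed to 264, 310 and 295 FPKM, the 13 T and NK cell markers to 426, 438 and 418 (6 of the 7 that passed the minimum were above WT in the library labelled Tle3cKO, with a median log2 ratio of 0.33), and the 5 monocyte markers to 196, 182 and 202. The 5 eosinophil markers were near 0, at 1.09, 1.004 and 2.04 FPKM in sum, with Epx at 0 in all libraries. No marker of the other lists was at 0 in all 3. Non-coding and rRNA-prone rows (Rmrp, Rpph1, Lars2, Malat1 and Neat1) summed to 732, 1207 and 631 FPKM. The 14 markers of cycling cells were level at 203, 210 and 205 FPKM. The part of other cells or of RNA quality in the ribosomal protein values was not tested.

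Both subunit medians had the same sign in each comparison, and with equal totals both subunit medians of the library labelled Tle3cKO were above WT (0.05 and 0.03). Against WT the small-subunit median was -0.05 and the large-subunit median -0.06 in the library labelled Tle3cKO, and 0.07 against 0.09 in Tle4cKO. In the first comparison the means had the opposite order, at -0.08 and -0.05. Between Tle4cKO and the library labelled Tle3cKO the medians were 0.12 for the small and 0.18 for the large subunit, and the large subunit was ahead among members under the median coding length (0.17 and 0.21) as well as among the longer ones (0.10 and 0.13). The quartiles of the genes in that comparison ran from 0.09 to 0.18 in the small and from 0.13 to 0.21 in the large subunit.

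**Figure D3:**
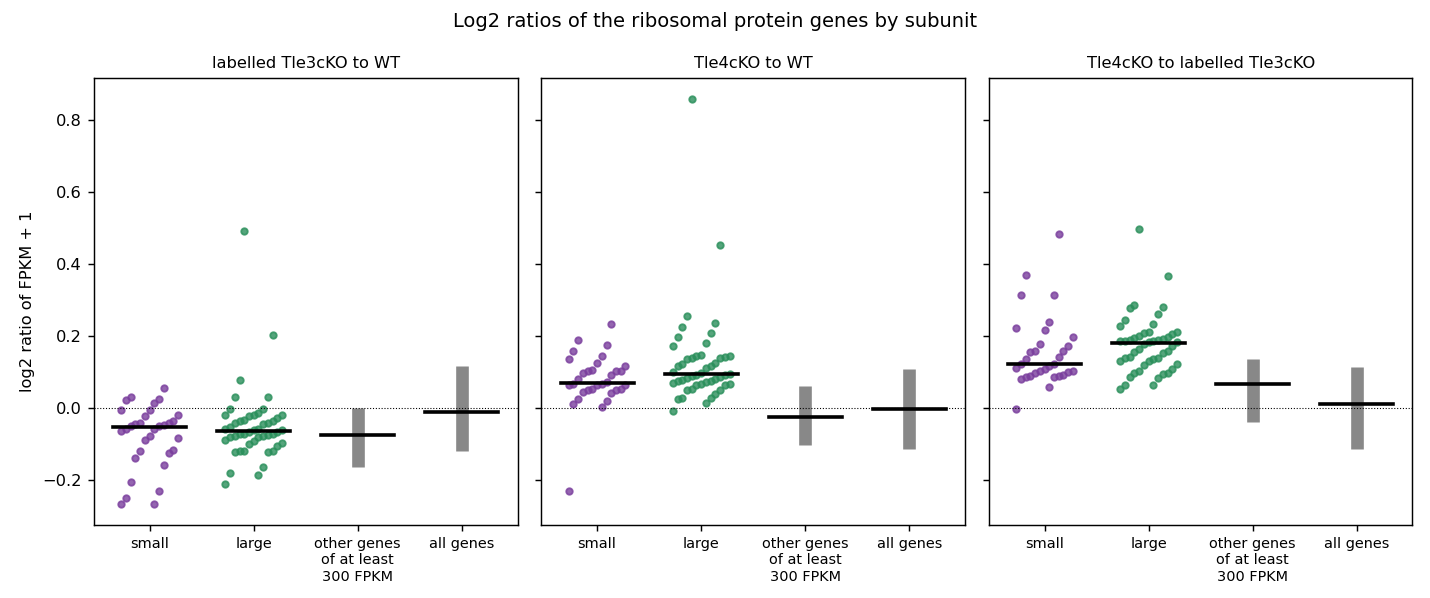
Log2 ratio of FPKM + 1 for each small-subunit and large-subunit gene in the 3 comparisons. Points are genes, black lines medians, and grey bars the middle 50 percent of the 214 other genes of at least 300 FPKM and of all 11114 genes tested. Members lay mostly below 0 in the first panel (70 of 80) and above 0 in the others (78 and 79 of 80). With equal totals 59 were above 0 in the first comparison, beside 68.4% of all genes.

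The members with the lowest ratios in the library labelled Tle3cKO against WT were Rps28 and Rps29 (both -0.27), Rps21 (-0.25) and Rps4l (-0.23). The highest were Rpl26 by its own row (0.49), Rpl22l1 (0.20), Rpl7l1 (0.08) and Rps15a (0.06). In Tle4cKO against WT the lowest were Rps4l (-0.23), Rpl19 (-0.01), Rps27a (0.00115) and Rps27l (0.01), and the highest, by their own rows, Rpl26 (0.86) and Rpl30 (0.45), then Rpl22l1 (0.25) and Rpl39 (0.24), a protein of the peptide exit tunnel. Between Tle4cKO and the library labelled Tle3cKO the lowest were Rps4l (-0.00196), Rpl22l1 (0.05), Rps27a (0.06) and Rpl7l1 (0.06), and the highest Rpl30 (0.50 by its own row), Rps21 (0.48), Rps29 (0.37) and Rpl26 (0.37 by its own row). By the sum of the rows at each locus this ratio was 0.29 for Rpl30 and 0.23 for Rpl26. Rps21, a small-subunit protein, was at 1849, 1553 and 2172 FPKM, the widest spread of any member above 1000 FPKM.

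Short genes made up several of these extremes. Over the 79 members with a coding length, Spearman's rho of coding length and log2 ratio was 0.46 when the library labelled Tle3cKO was set against WT, -0.16 when Tle4cKO was, and -0.65 between both libraries labelled cKO. Over 10259 other tested genes it was 0.07, -0.04 and -0.12. The 9 members of up to 300 nt had medians of -0.19, 0.07 and 0.23, and all 9 were lower in the library labelled Tle3cKO than in WT. The 221 other genes that short had medians of -0.09, -0.02 and 0.07. Genes here share library and depth and are not replicates. An alternative chosen after the data were seen subtracted the median of other genes in the same of 10 equally filled bins of coding length. By it, 24 of 79 members were above WT in the library labelled Tle3cKO (median -0.02) and 77 in Tle4cKO (median 0.09). Between both libraries labelled cKO, 78 were higher in Tle4cKO (median 0.11). Only 737 other genes were shorter than the members' median, so the lowest bin held every member under that median. The shortest members were thus not matched more closely.

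**Figure D4:**
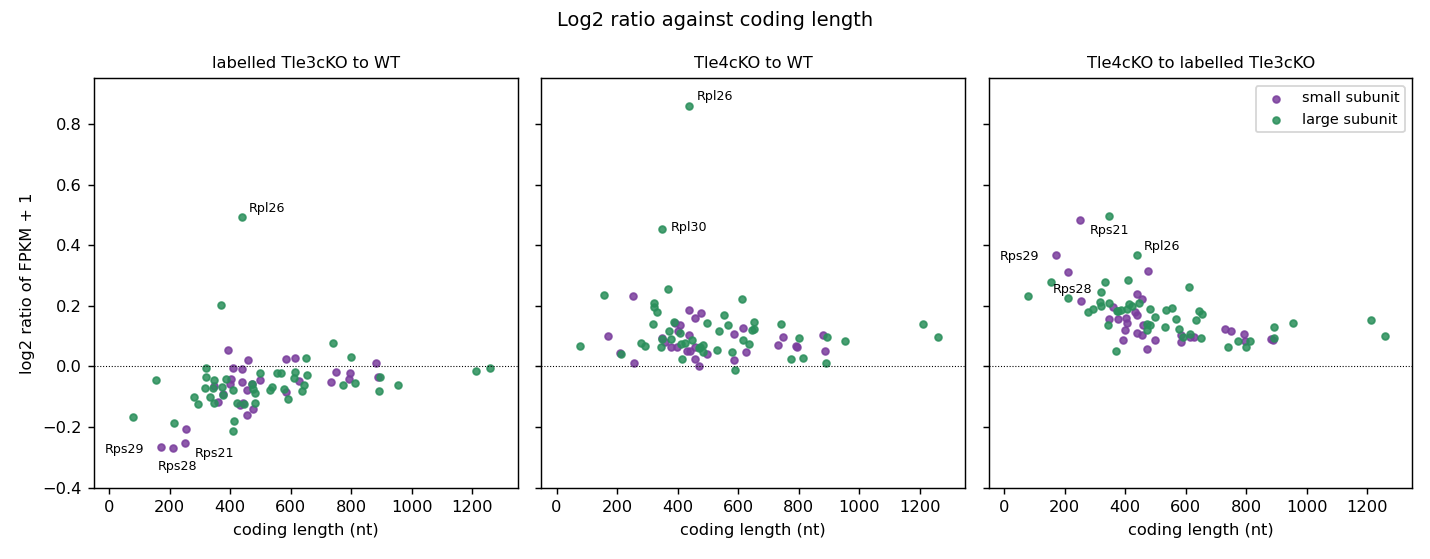
Log2 ratio of FPKM + 1 against coding length in nucleotides for 79 members in the 3 comparisons, each point a gene coloured by subunit. Short genes such as Rps28, Rps29 and Rps21 lay lowest in the first panel and among the highest in the last, where rho was -0.65.

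Of the members with further roles, those that follow were lowest in the library labelled Tle3cKO as deposited, but with equal totals Rpl38 alone of them stayed below WT there. Rpl5 and Rpl11, which with 5S rRNA hold the p53 ligase Mdm2, were at 358, 350 and 384 FPKM and at 978, 933 and 1061. Rps6, the substrate of S6 kinase downstream of mTORC1, was at 710, 701 and 759 FPKM. Rpl13a, which leaves the ribosome of interferon-treated myeloid cells to silence inflammatory mRNAs, was at 1011, 985 and 1181 FPKM. Its log2 ratio of Tle4cKO to WT was 0.22, above the members' median. Rps19, the protein most often mutated in Diamond-Blackfan anaemia, was at 633, 611 and 721 FPKM, with a log2 ratio of 0.19. Rpsa, also known as a laminin-binding protein, was at 594, 579 and 616 FPKM. Rpl38, linked to the translation of Hox mRNAs, was at 1489, 1308 and 1530 FPKM. Rps27a, made as a fusion with ubiquitin, was at 756, 726 and 756 FPKM, level between WT and Tle4cKO.

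Of the paralog pairs, Rpl22l1 and Rpl22 stood apart. Rpl22l1, whose protein was identical to Rpl22 at 87 of 119 aligned residues, was at 155, 179 and 185 FPKM and exceeded Rpl22, with ratios of 1.72, 2.04 and 1.85. It was the only paralog more abundant than its canonical partner. It was above WT in both libraries labelled cKO, while Rpl22 was below WT in the library labelled Tle3cKO (-0.04, but 0.06 with equal totals) and above it in Tle4cKO (0.15). Rpl36al, identical to Rpl36a over all 106 residues, was at 0.694, 0.710 and 0.688 of its level. Rps27l, which p53 induces, stood at 0.0985, 0.0891 and 0.0885 of the summed Rps27 locus. Rpl7l1 was at 0.0404, 0.0443 and 0.0437 of Rpl7 and Rps4l at 0.0110, 0.00952 and 0.00882 of Rps4x. Rpl39l was at 9.33e-05, 9.97e-05 and 0.000195 of Rpl39.

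Members with and without a long pyrimidine run near the start had like ratios. The 27 with a run of at least 8 had medians of -0.05, 0.09 and 0.16 in the 3 comparisons, and the 32 with a shorter run -0.06, 0.08 and 0.17. Of those shown above, Rpl7a, with the longest run, was at 777, 794 and 830 FPKM, and Rps18 at 995, 1011 and 1111, both with WT lowest. Rpl28 was at 1471, 1298 and 1498 FPKM and Rpl35 at 1534, 1464 and 1664, both with the library labelled Tle3cKO lowest, though WT was lowest for Rpl35 with equal totals. Host genes of snoRNAs differed little from the rest, at -0.06 against -0.06, 0.08 against 0.09 and 0.16 against 0.16. The 4 members on the X chromosome (Rpl10, Rpl39, Rpl36a and Rps4x) were all above WT in Tle4cKO, as were 78 of all 80 members. Their log2 ratios ran from 0.07 to 0.24, with a median of 0.16 beside 0.09 over all members.

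Other genes of the translation machinery were read from lists by role. Genes of translation elongation and other TOP mRNAs, which include Fau and Gnb2l1, exceeded WT in Tle4cKO for 20 of 22 (median log2 ratio 0.09). In the library labelled Tle3cKO 14 of 22 were below WT (-0.03, or 0.07 with equal totals), and 17 of 22 were higher in Tle4cKO than there (0.10). The elongation factor Eef2 was at 639, 605 and 704 FPKM, and Eif3f, an initiation factor subunit with a TOP mRNA, at 171, 156 and 187. The non-coding snoRNA hosts did not share the order, with Snhg12 at 35.8, 50.6 and 45.5 FPKM and Gas5 at 39.98, 39.0 and 33.8.

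Ribosome biogenesis factors went the other way in the library labelled Tle3cKO. There 58 of 73 exceeded WT (median log2 ratio 0.13), while 70 of 80 ribosomal protein genes were below it. With equal totals both groups were above WT, at medians of 0.21 and 0.04, on either side of the 0.08 of all genes. Gnl3, the nucleolar GTPase nucleostemin, was at 22.01, 32.8 and 28.9 FPKM, and Rrs1, an assembly factor of the large subunit, at 14.3, 19.5 and 15.3. Riok1, a kinase of small-subunit maturation, was lowest there, at 15.2, 12.4 and 15.6 FPKM. In Tle4cKO 53 of 73 were above WT, with a median of 0.07, and against the library labelled Tle3cKO 48 were lower (median -0.06). Nop58, a core protein of box C/D snoRNPs, was at 44.5, 53.9 and 41.4 FPKM.

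The mitochondrial ribosomal proteins, which make the ribosome of another compartment, were near the level of all genes, with medians of -0.01, 0.03 and 0.02 over 77 genes. Mrps21 was the widest, at 60.1, 39.5 and 62.8 FPKM. Initiation factors (31 genes) had medians of 0.03, -0.000665 and -0.01, and Eif1a was at 53.7, 65.2 and 65.1 FPKM. Regulators of mTORC1 and TOP mRNAs (20 genes) had medians of -0.04, -0.07 and -0.01. Among them Myc, which drives ribosome synthesis, was at 28.2, 33.5 and 26.8 FPKM and the S6 kinase gene Rps6kb2 at 7.42, 7.73 and 6.02. Ribosome quality control genes (19) had medians of -0.02, -0.00353 and 0.01, with Edf1, a sensor of collided ribosomes, at 135, 117 and 122 FPKM. The p53 targets (20 tested) had medians of -0.08, -0.02 and 0.06, with Trp53inp1 at 19.3, 14.3 and 22.5 FPKM.

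Oxidative phosphorylation subunits, also short and abundant mRNAs, were lower in the library labelled Tle3cKO for 65 of 76 genes, with a median of -0.12, or for 44 with a median of -0.02 at equal totals. In Tle4cKO 39 of 76 were above WT, with a median of 0.000800, or 49 with a median of 0.03 at equal totals, where 78 and 79 of 80 ribosomal protein genes were. Against the library labelled Tle3cKO 70 of 76 were higher in Tle4cKO (0.12), or 56 at equal totals (0.05), where 79 and 75 of 80 ribosomal protein genes were. Cox6c was at 251, 179 and 219 FPKM. Immediate early and dissociation-linked genes were lower than WT in both, with medians of -0.10 and -0.24 over 27 genes, and Klf2 was at 33.9, 25.7 and 23.2 FPKM. With equal totals the first of these medians was -0.00358. That scaling also turned the medians of the library labelled Tle3cKO against WT positive for mitochondrial ribosomal proteins (0.08), mTORC1 and TOP regulators (0.05), p53 targets (0.01) and quality control genes (0.07). Against WT in Tle4cKO it turned those of initiation factors (0.03), p53 targets (0.01) and quality control genes (0.03) positive. Between both libraries labelled cKO it turned those of mitochondrial ribosomal proteins (-0.05), p53 targets (-0.00941) and quality control genes (-0.06) negative.

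**Figure D5:**
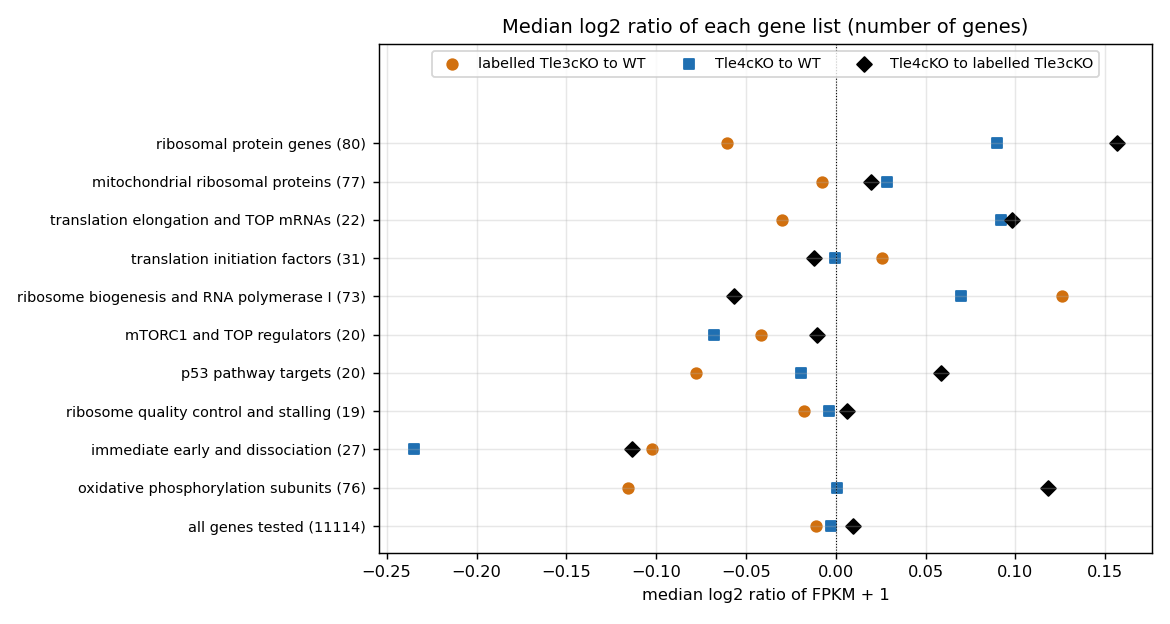
Median log2 ratio of FPKM + 1 for the ribosomal protein genes, 9 related gene lists and all genes tested, with the number of genes in brackets and 1 marker per comparison. Ribosomal protein genes stand at -0.06, 0.09 and 0.16, and ribosome biogenesis factors at 0.13, 0.07 and -0.06. With equal totals the ribosomal protein genes stand at 0.04, 0.12 and 0.09, and all genes at 0.08, 0.02 and -0.05.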

How the data were processed

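The authors deposited FPKM per gene, per the file headers, in 1 table for each library with the same 23997 rows. The submitters' processing notes name TopHat2 (2.1.0), Cufflinks (2.2.1) and the build mm10 but not the role of each. Read number, strandedness and annotation were not given in the sources used here. No depth is known, so no counting interval is given, and a value of 0 is called listed at 0. FPKM divides by transcript length and library depth, so rows of near-identical copies and the total of a library can move a value.

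Log2 ratios were computed on FPKM with a pseudocount of 1 for the 11114 genes averaging 1 FPKM or more, in Python 3.11.15 with pandas 2.3.3. With 1 library per genotype no test was run. Calls were a 2-fold difference, or a ratio above or below 0. The calculation was tested on simulated data. Positions, gene types, coding lengths and snoRNA genes are from GENCODE release M21 of the same build, copies from BLAST 2.17.0, and start windows from RefSeq GRCm38.p6. Proteins were translated from GENCODE coding sequences.

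The members and gene lists were chosen with earlier results of these data known. Genes were named by rule: the 4 highest and 4 lowest levels in each subunit, the 4 highest and 4 lowest ratios in each comparison, genes fixed by role or as paralog pairs, subunits outside the name pattern, and the 2 ends of each related list at a mean of at least 5 FPKM, of which some are printed. C1qa, Csf1r, Cd68, Lyz2 and Igj, and Rpl7a, Rpl28, Rpl35 and Rps18 (for their start windows), were named after their values were seen. Alternatives were other pseudocounts (0.1 and 5), filters, scalings and member sets, and 2 chosen after the data were seen. Some genes are counted in the totals but not reported here by name.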

Additional observations from a re-analysis of the deposited data

How the results depend on the processing

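Leaving out a replicate was not possible with 1 library per genotype. No paired analysis was possible because the genotypes share no replicates. The alternatives were other pseudocounts (0.1, 5), other filters (none, 5 FPKM), 4 scalings and canonical subunits alone. Another kept the members without a protein of at least 90% identity to another (65 left). Summed rows of 1 locus and subtraction of other genes in the same bin of coding length were chosen after the data were seen.

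The median of the members in the library labelled Tle3cKO against WT reversed with equal totals (0.0389, and 59 of 80 above 0). All genes then had a median of 0.0788, with 68.4% above 0. With equal totals of the genes that are not ribosomal the members' median also reversed (0.0416, and 60 above 0). All genes were then at 0.0812, with 68.9% above 0. In every setting the members' median lay below that of all genes. The difference was -0.0499 as deposited and -0.0399 with equal totals. The members' median was -0.0532 with upper quartile scaling and -0.0174 with length subtracted, where 24 were above 0. Tle4cKO against WT moved to 0.12 and 0.140 with the equal totals and 0.109 with the upper quartile. Tle4cKO against the library labelled Tle3cKO moved to 0.0874 and 0.105 with the equal totals, 0.169 with the upper quartile and 0.114 with length subtracted. The order with the library labelled Tle3cKO lowest and Tle4cKO highest fell from 68 members to 20 (19 of the 68 and Rpl19) and 19 with the equal totals. The total FPKM was 610714, 569961 and 598023, and equal totals raised all ratios of the library labelled Tle3cKO. Over all settings the counts above WT in Tle4cKO were 63 (of 65) to 79, and Tle4cKO was highest for 63 to 79 members.

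With equal totals 49 members changed sign in the library labelled Tle3cKO against WT, 1 (Rpl19) in Tle4cKO against WT and 4 (Rpl22l1, Rpl7a, Rpl7l1 and Rps27a) between the libraries labelled cKO. Of the 4 genes followed under every setting (Rpl26, Rpl30, Rps21 and Rpl22l1), those that changed sign were Rpl26 in the library labelled Tle3cKO against WT with summed rows (-0.18), Rpl30 in the same comparison with the equal totals (0.0528 and 0.0554) and length subtracted (0.0173), and Rpl22l1 between the libraries labelled cKO with equal totals (-0.0174) and length subtracted (-0.00512).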
